A study of Rattus norvegicus with 8 samples.

Results

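Heat shock proteins and cochaperones were followed in the hypothalamus of rats given retinoic acid (RA). The set of 10 genes held the small heat shock proteins *Hspb1*, *Hspb8* and *Cryab*, the Hsp70 and Hsp110 proteins *Hspa1b*, *Hspa8*, *Hspa5* and *Hsph1*, the J protein *Dnajb1*, *Hsp90aa1* and *Hspd1*. Of these, 8 were measured by a probe that could be matched to a gene, out of 15159 named genes in the whole series, and no probe was matched to *Hspa1b* or *Dnajb1*, whose expression was not analysed here. *Hspb1* was chosen by its measured values, a large rise of its RA over vehicle log2 ratio on these same arrays, so they are given as a description without a test. The other members were chosen as well-known heat shock genes, with earlier results of these arrays in view.

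Heat shock proteins are molecular chaperones: they bind proteins that are unfolded or newly made, keep them from clumping and help them to fold. Small heat shock proteins hold unfolded proteins, Hsp70 proteins refold them in cycles of ATP use that J proteins start and Hsp110 proteins reset, and Hsp90 and the chaperonins act on later folding steps. Heat and other stress induce many of these genes together through heat shock factor 1, whereas in brain *Hspb1* and *Cryab* are also known as genes of glia.

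The arrays compared the RNA of male F344 rats (strain label F344N), an inbred rat that responds to photoperiod, held in SD (short days). Each rat carried a cannula to the third ventricle and received 5 μl of all-trans RA or of vehicle by that route. Hypothalamic blocks that included the arcuate nuclei were frozen 24 hrs later, from 4 RA and 4 vehicle rats. The labels give 1e-05 M RA and saline as vehicle, whereas the methods give a higher RA concentration and DMSO in saline for these rats. Every array held an RA sample against a vehicle sample, with RA in Cy5 on arrays 1, 3, 6 and 8 and in Cy3 on arrays 2, 4, 5 and 7. The 8 arrays lay in 2 rows of 1 slide, arrays 1 to 4 in row 1 and arrays 5 to 8 in row 2, and each row held both dye orders. Neither the labels nor the methods say which arrays carried the same RNA. The summed RA intensity of 9 choroid plexus markers was 81552 and 94535 on arrays 1 and 2. On arrays 3 and 4 it was 2072 and 2116. Their median log2 ratio was -1.38 and -1.57 on arrays 6 and 7. That of 11 neuronal markers was -0.59 and -0.64 on arrays 5 and 8. These may be the couples of shared RNA, which was not tested, so arrays of a row may repeat a comparison. The block is a mixed tissue, so a level is an average over neurons, glia, ependyma and vessels. Of 11 measured marker genes of hypothalamic neurons, all were well above background on all 8 arrays in both channels.

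A log2 ratio below is the RA level over the vehicle level on 1 array, after background correction and loess normalisation, and a log2 fold change is the mean of the 8 ratios. All 8 member probes were well above background in both channels on all 8 arrays, and none was saturated.

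Promoter sequences are shown for 4 members, *Hspb1*, *Hspb8*, *Hsph1* and *Hspd1*, each of which holds a match to the element described below. The 4 genes were picked with their ratios known, and the part of the element in any ratio was not tested. The sequences are RefSeq sequences of GRCr8, the 250 bases before the transcript start, read 5′ to 3′ on the strand of the gene. *Hspb1* is at chr12:26432302-26432551 on the minus strand, *Hspb8* at chr12:45837058-45837307 on the plus strand, *Hsph1* at chr12:10427118-10427367 on the plus strand and *Hspd1* at chr9:64084038-64084287 on the minus strand. Capitals mark matches to a heat shock element, the inverted repeat that heat shock factors bind, searched as GAANNTTC or TTCNNGAA.
*Hspb1* promoter: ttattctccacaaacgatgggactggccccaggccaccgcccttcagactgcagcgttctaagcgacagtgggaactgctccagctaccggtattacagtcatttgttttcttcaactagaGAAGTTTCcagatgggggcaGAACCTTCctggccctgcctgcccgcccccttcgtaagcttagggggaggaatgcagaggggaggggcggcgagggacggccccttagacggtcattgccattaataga
*Hspb8* promoter: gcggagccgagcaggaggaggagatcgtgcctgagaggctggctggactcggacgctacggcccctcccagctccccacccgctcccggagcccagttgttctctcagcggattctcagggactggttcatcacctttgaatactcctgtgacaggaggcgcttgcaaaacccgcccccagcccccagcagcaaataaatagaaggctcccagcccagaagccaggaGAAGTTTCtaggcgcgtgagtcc
*Hsph1* promoter: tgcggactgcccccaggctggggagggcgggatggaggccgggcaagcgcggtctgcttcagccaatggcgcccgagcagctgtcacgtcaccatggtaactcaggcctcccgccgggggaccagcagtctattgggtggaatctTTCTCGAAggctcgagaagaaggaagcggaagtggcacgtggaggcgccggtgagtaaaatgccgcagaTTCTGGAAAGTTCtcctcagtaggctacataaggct
*Hspd1* promoter: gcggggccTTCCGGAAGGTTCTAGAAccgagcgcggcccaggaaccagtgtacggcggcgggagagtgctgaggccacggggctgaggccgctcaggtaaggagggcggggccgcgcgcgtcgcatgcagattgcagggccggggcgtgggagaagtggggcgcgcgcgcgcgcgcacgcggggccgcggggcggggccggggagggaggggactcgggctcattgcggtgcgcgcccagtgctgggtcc
Each of these 2-unit motifs is its own reverse complement, so a search of 1 strand covers both. A 3-unit form, GAANNTTCNNGAA or TTCNNGAANNTTC, was also searched, and each 3-unit match contains 2 overlapping 2-unit matches.

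In windows of 300 bases (250 before and 50 after the start), the 2-unit motif was found in 6 of the 7 members that have a promoter sequence in the table (*Dnajb1*, which has no probe, among them), against 15.9% of all 33469 promoters. *Hspa5* was the member without it. Of 71 other chaperone genes with a promoter sequence, 17 (23.9%) held the 2-unit motif. The 3-unit motif was found in *Hspa8*, *Hsph1* and *Hspd1*, against 0.798% of all promoters and 5.63% of the 71. The members were chosen as well-known heat shock genes, so their high share of such motifs is a description and not a finding. In *Hspb1* the 2 matches ended 121 and 101 bases before the start, and no 3-unit match was found. In *Hspb8* the match ended 15 bases before the start, and in *Hsph1* the 3-unit match ended 23 bases before it. A direct repeat of AGGTCA with 5 bases between (1 exact form of the RA response element) was found in 0 of the 7 members and in 3 of all promoters. Other forms were not searched, and at this rarity 0 of 7 says nothing about the members. These are matches of letters and not measured binding. *Hspb1* had 2 matches of 2 units, *Hspa8* had 4, and *Hsph1* and *Hspd1* had 3 each. Whether the matches bear on the ratios was not tested.

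*Hspb1*, which encodes the small heat shock protein Hsp27 (probe A_44_P992908, transcript NM_031970), had a log2 ratio above 0 on all 8 arrays. From array 1 to array 8 the ratios were 1.39, 1.13, 2.14, 1.63, 2.26, 3.26, 3.12 and 2.70. The lowest ratio was on array 2 and the highest on array 6, and every array of slide row 2 was above every array of row 1. The log2 fold change was 2.21 with a standard error of 0.27 on 4 couples of arrays, which is a 4.61-fold higher level after RA. Of the named genes, 4.08% had ratios above 0 on all 8 arrays, and 2 had a higher log2 fold change, *H19* at 2.86 and *Cp* at 2.60 (both named after their values were seen). The mean ratio of *Hspb1* was 2.37 on the arrays with RA in Cy5 and 2.04 on those with vehicle in Cy5.

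**Figure D1:**
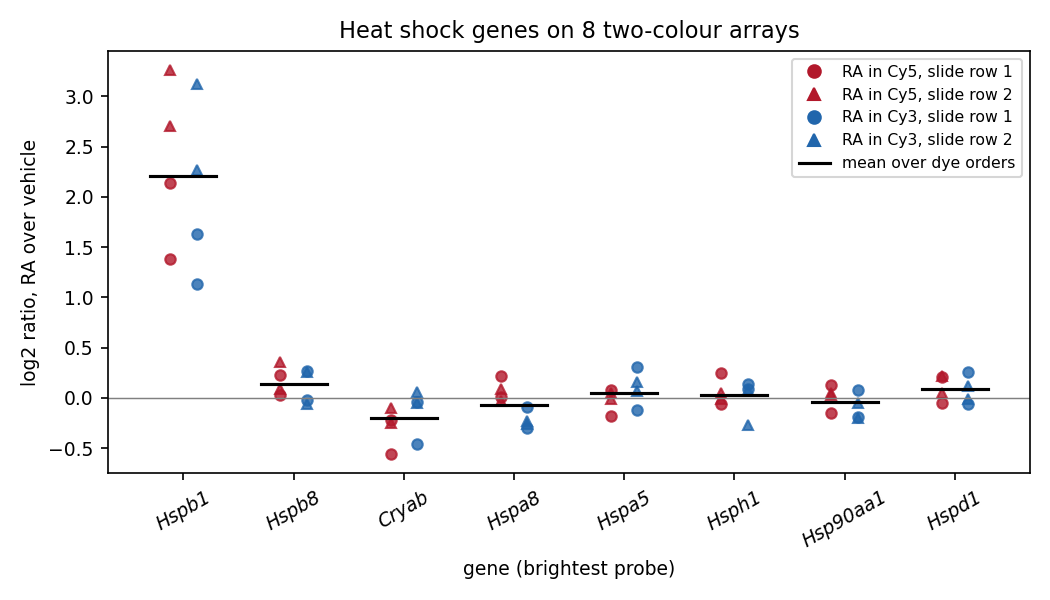
The y axis is the log2 ratio of RA over vehicle for the brightest probe of each of the 8 measured heat shock genes on the x axis; each point is 1 array, its colour the dye of RA and its shape the slide row, and each black line is the mean. *Hspb1* lies between 1.13 and 3.26, with the triangles of row 2 above the circles of row 1, and all points of the other 7 genes lie between -0.56 and 0.35.

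The levels of *Hspb1* in each channel showed where this spread lay. In the RA channel, the log2 level on arrays 1 to 8 was 11.44, 11.36, 12.18, 12.15, 13.72, 14.27, 14.38 and 13.52. In the vehicle channel it was 10.06, 10.22, 10.03, 10.52, 11.45, 11.00, 11.26 and 10.82. The RA level was above the vehicle level on each array, and both channels were higher on the 4 arrays of row 2 than on the 4 arrays of row 1. Over all 8 arrays the groups just overlapped, since the lowest RA level (11.36, array 2) was below the highest vehicle level (11.45, array 5). Levels without overlap were found for 0.284% of named genes and for 0 of the 8 members. In row 1 the mean ratio of *Hspb1* was 1.57, a 2.97-fold difference, and in row 2 it was 2.84, a 7.15-fold difference. A separation of the rows in this direction was found for 5.29% of named genes, and *Hspb1* was the only one of the 8 members that had it. Slide row and the animals on it cannot be told apart.

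**Figure D2:**
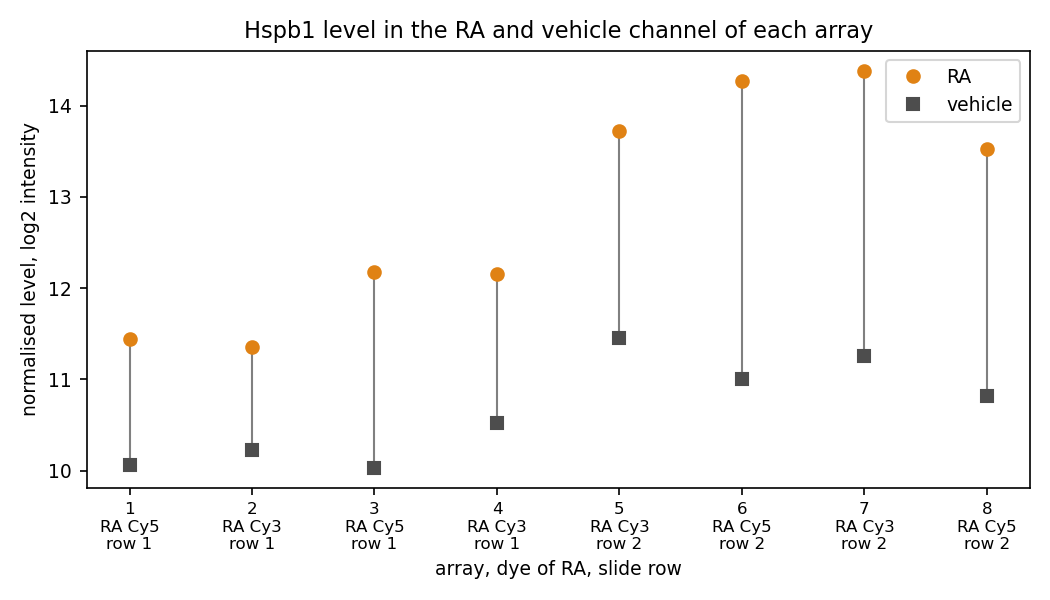
The y axis is the normalised log2 intensity of the *Hspb1* probe and the x axis lists the 8 arrays with the dye of RA and the slide row; circles are the RA channel, squares the vehicle channel and each line joins the channels of 1 array. RA is above vehicle on every array, and both channels are higher on arrays 5 to 8 than on arrays 1 to 4.

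The same arrays were high for markers of reactive astrocytes, a list of which 9 of 10 genes were measured. At an unadjusted p under 0.01, 8 of the 9 rose after RA in limma, against 3.52% of named genes that were called higher. The list was chosen with earlier results of these arrays known, so this count is a description and not independent support. *Gfap*, the intermediate filament of astrocytes, rose by 1.40 on the log2 scale (SE 0.20, unadjusted p = 0.000177 and adjusted p = 0.222 in limma). *Cp* (ceruloplasmin) rose by 2.60 and *Timp1* (an inhibitor of matrix proteases) by 2.19, while *Osmr*, which was well above background on only 2 arrays, had a log2 fold change of 0.013. The median ratio of the list was between 0.47 and 0.79 on the arrays of row 1 and between 1.69 and 2.67 on those of row 2. The summed intensity of the 9 genes ran from 7198 to 27678 in the RA channel and from 3900 to 5716 in the vehicle channel. In the vehicle channel *Lcn2*, *Serpina3n* and *Steap4* were well above background on only 4, 6 and 6 arrays. Over the 8 arrays the Pearson correlation of *Hspb1* with the median ratio of the list was 0.96, as a description. These arrays share a slide and, in couples that the labels do not give, RNA. The part of these cells in the *Hspb1* ratio was not tested, and in RNA of a whole block more cells of a type and more RNA per cell cannot be told apart, nor can fewer cells and less RNA.

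Markers of resting astrocytes did not move with *Hspb1* in this way. Of 8 such genes, 1 passed the test, *Gja1* (a gap junction protein), which fell by 0.22 on the log2 scale (SE 0.059, unadjusted p = 0.00697 and adjusted p = 0.289 in limma), against 0.792% of named genes called lower. The median ratio of the list was between -0.28 and -0.0040 on the 8 arrays. Of 8 microglial markers, *Aif1*, *Itgam* and *C1qa* rose (log2 fold changes 0.88, 0.87 and 0.83) and *Tmem119* fell by 0.52. At an unadjusted p under 0.01 in limma, 3 of the 8 were called higher and 1 lower, against 3.52% and 0.792% of named genes. The median ratio of the 8 was 0.032 to 0.18 in row 1 and 0.22 to 0.44 in row 2. No gene passed among 6 markers of endothelium, 7 of oligodendrocytes (median log2 fold change -0.19) and 9 of choroid plexus, against 4.31% of named genes in either direction. At an unadjusted p under 0.05 in limma, 4 of the 7 oligodendrocyte markers were called, all lower, against 13.1% of named genes in either direction. At that threshold 1 of the 6 endothelial and 0 of the 9 choroid plexus markers were called. The choroid plexus median was -1.57 on array 7 and -1.38 on array 6, of opposite dye order and with the highest ratios of *Hspb1*, and 0.074 to 0.64 on the other 6. Of 6 markers of ependyma and tanycytes, 1 passed, *Rarres2* (chemerin), which rose by 0.40 on the log2 scale (unadjusted p = 0.00799 in limma), against 3.52% of named genes called higher. The median ratio of the list was -0.069 to 0.13. Of 11 markers of hypothalamic neurons, 1 passed, *Cartpt* (a feeding peptide), which fell by 0.42 (unadjusted p = 0.00198 in limma), against 0.792% of named genes called lower. The log2 fold change was above 0 for 4 of the 11 and below 0 for 7, and the highest was that of *Avp* at 0.65, which did not pass. The median ratio of these neuronal genes was 1.2e-04 to 0.29 in row 1 and -0.64 to -0.017 in row 2, lower on every array of the row on which *Hspb1* was higher. The part of these cell types in the result was not tested either.

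**Figure D3:**
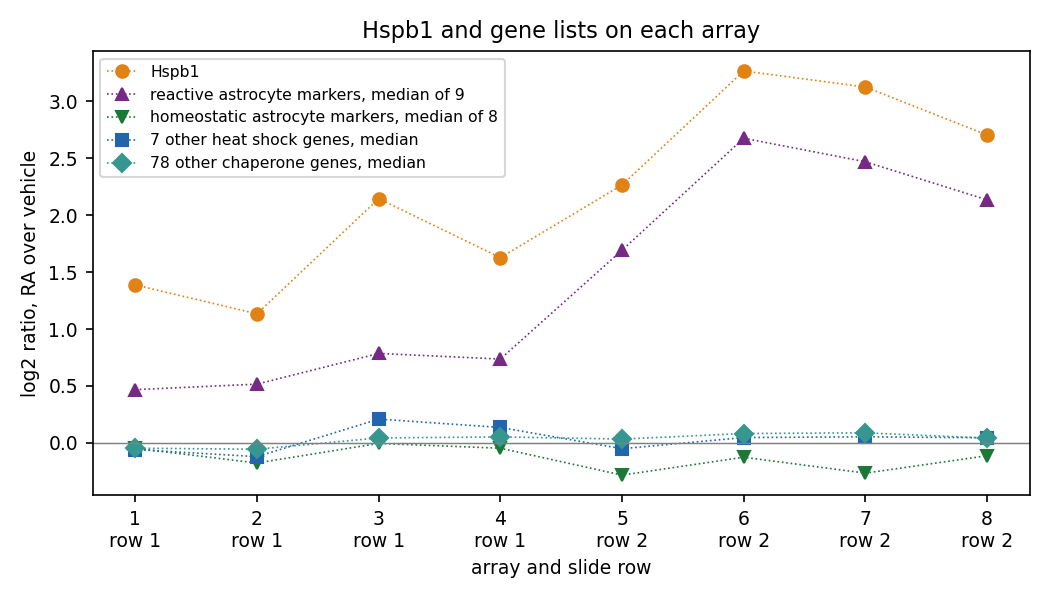
The y axis is the log2 ratio of RA over vehicle and the x axis lists the 8 arrays with their slide row; points are the ratio of *Hspb1* or the median ratio of a gene list, and the dotted lines only join points of 1 kind, since arrays have no order. *Hspb1* and the reactive astrocyte median are both highest on array 6, while the medians of the 7 other heat shock genes, of 78 other chaperone genes and of resting (homeostatic) astrocyte markers stay between -0.28 and 0.21.

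The 7 other measured members had no such ratio. In limma, 0 of the 7 had an unadjusted p under 0.01, the threshold that the methods name, against 4.31% of named genes, a share at which a count of 0 in 7 is near the background. At an unadjusted p under 0.05 the count was 1 of 7 (*Cryab*), against 13.1% of named genes. At an adjusted p under 0.05 it was 0, as for all named genes. The median log2 fold change of the 7 was 0.033, beside -0.0046 over all named genes, and none was above 0.25 in size. On every array *Hspb1* was the highest of the 8 members, and the next highest ratio on an array was between 0.024 and 0.35. For comparison, the 95th percentile of all named genes was between 0.28 and 0.49 on the 8 arrays.

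Of the small heat shock proteins, *Cryab* (αB-crystallin, probe A_44_P531758), a partner of Hsp27 in mixed complexes that is abundant in oligodendrocytes and astrocytes, had ratios below 0 on 7 of 8 arrays. From array 1 to array 8 its log2 ratios were -0.56, -0.46, -0.22, -0.042, -0.047, -0.099, 0.054 and -0.25. The arrays with the lowest values were 1 and 2, both in row 1. The log2 fold change was -0.20 (SE 0.080, 95% interval -0.39 to -0.014, unadjusted p = 0.0391 and adjusted p = 0.426 in limma), so *Cryab* did not pass the threshold of 0.01. Its sign was opposite to that of *Hspb1*. Of all named genes, 92.4% had a log2 fold change smaller in size than that of *Cryab*. The mean ratio was -0.32 in row 1 and -0.084 in row 2. Without arrays 1 and 2 the log2 fold change was -0.099 (unadjusted p = 0.147 in limma). In slide row 2 only, the unadjusted p in limma was 0.349. With slide row as a block the unadjusted p in limma was 0.00442, under the threshold of 0.01. That fit called 12.4% of named genes, against 4.31% in the main fit, and may count shared RNA more than once. The 24 couplings of arrays gave p between 0.00135 and 0.0391, of which the largest was kept.

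*Hspb8* (Hsp22, probe A_44_P134143), which works with the cochaperone Bag3 in clearing misfolded proteins by autophagy, had log2 ratios of 0.024, -0.023, 0.23, 0.26, -0.056, 0.35, 0.26 and 0.086. Arrays 6, 4 and 7 were highest and the 2 values below 0 were on arrays 2 and 5. The log2 fold change was 0.14 (SE 0.066, 95% interval -0.012 to 0.30, unadjusted p = 0.0675 and adjusted p = 0.504 in limma). The upper end of that interval is far under the lowest single ratio of *Hspb1*.

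Of the Hsp70 and Hsp110 proteins, *Hspa8* (Hsc70, probe A_64_P023392), the Hsp70 protein that most cells make at all times, had log2 ratios of 0.013, -0.30, 0.22, -0.091, -0.23, -0.029, -0.26 and 0.086. Of the 4 arrays with RA in Cy5 only array 6 was below 0, whereas all 4 with RA in Cy3 were. The mean was 0.071 on the former and -0.22 on the latter, so for this probe the sign followed the dye order. Its log2 fold change over both was -0.074 (SE 0.053, 95% interval -0.20 to 0.050, adjusted p = 0.703 in limma). The 3 other probes for *Hspa8* had log2 fold changes of -0.058, 0.049 and 0.040. Their means were -0.085, 0.017 and -0.057 with RA in Cy5. With RA in Cy3 they were -0.031, 0.082 and 0.14, each higher than with RA in Cy5, unlike the brightest probe. *Hspa5* (BiP, probe A_44_P1054213), the Hsp70 protein of the endoplasmic reticulum, had log2 ratios of -0.18, -0.12, 0.079, 0.31, 0.073, 0.050, 0.16 and -0.013. The ratios lay on both sides of 0 in both slide rows. Its log2 fold change was 0.044 (SE 0.064, 95% interval -0.10 to 0.19, adjusted p = 0.878 in limma). *Hsph1* (Hsp110, probe A_44_P121374), the exchange factor that resets Hsp70, had log2 ratios of -0.058, 0.089, 0.25, 0.14, -0.27, 0.048, 0.078 and -0.014. Array 5 stood below the other 7. Its log2 fold change was 0.033 (SE 0.062, 95% interval -0.11 to 0.18, adjusted p = 0.917 in limma).

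*Hsp90aa1*, the stress-inducible cytosolic Hsp90 (probe A_64_P119852), had log2 ratios of -0.15, -0.19, 0.13, 0.074, -0.050, 0.025, -0.20 and 0.046. The ratios were divided evenly around 0, with 4 above and 4 below. The log2 fold change was -0.041 (SE 0.057, 95% interval -0.17 to 0.092, adjusted p = 0.873 in limma), and its other 2 probes had -0.018 and 0.12. On array 5 the log2 level of the brightest probe was 11.64 in the RA channel and 11.69 in the vehicle channel. On the other arrays it was 14.65 to 14.91 and 14.71 to 14.86, so both channels were low together on array 5 and the ratio there was near 0. In all, 6 of the 8 members had their lowest RA level and 5 their lowest vehicle level on array 5. Neither *Hspb1* nor *Hspa8* was among them. Low levels on array 5 were not particular to the members. The summed RA level of 17 cochaperones of Hsp70 and Hsp90 outside the set was 58182 there, against 96426 to 110646 on the other arrays. Those of 9 chaperonin genes (74776) and 6 other small heat shock proteins (2420) were instead highest on array 5.

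*Hspd1* (Hsp60, probe A_64_P076567), the chaperonin of mitochondria, had log2 ratios of -0.051, -0.063, 0.21, 0.26, 0.12, 0.052, -0.014 and 0.22. Arrays 4, 8 and 3 were highest and the lowest ratio was -0.063. The log2 fold change was 0.092 (SE 0.061, 95% interval -0.050 to 0.23, adjusted p = 0.665 in limma).

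**Figure D4:**
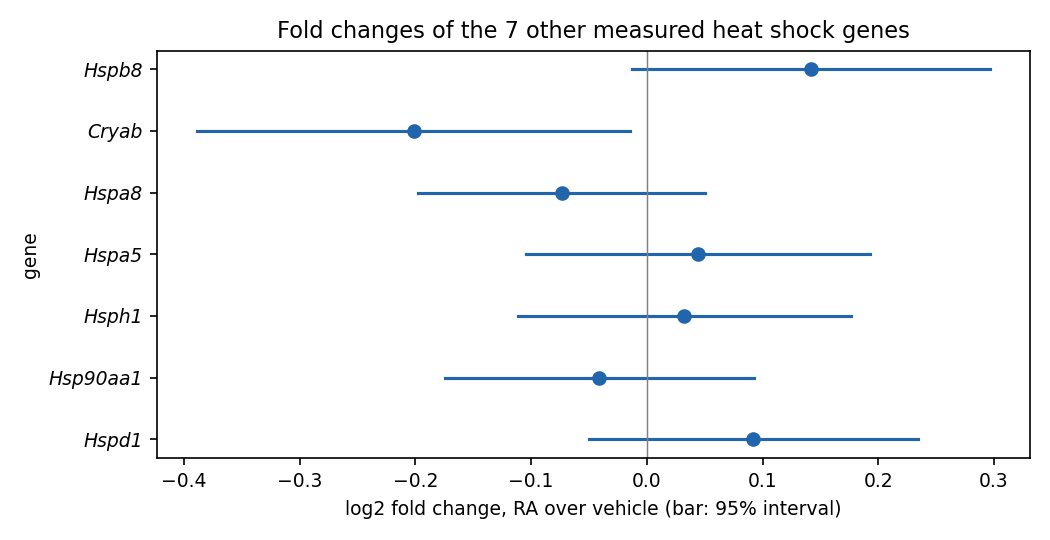
The x axis is the log2 fold change of RA over vehicle and the y axis lists the 7 measured members other than *Hspb1*; points are the means over 8 arrays and bars the 95% intervals from limma, taken from the coupling of arrays with the largest p. The interval of *Cryab* (-0.39 to -0.014) lies below 0, and those of the other 6 genes include 0.

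The correlations between members differed from pair to pair. The 8 arrays share a slide, dye orders and, in couples that the labels do not give, RNA, so they are not 8 independent comparisons. As a description over them, the Pearson correlation of the ratios of *Hspb1* was 0.68 with *Cryab*, 0.58 with *Hspb8*, 0.34 with *Hspa5* and between -0.050 and 0.21 with *Hspa8*, *Hsph1*, *Hsp90aa1* and *Hspd1*. The highest correlations within the set were 0.90, between *Hsp90aa1* and *Hspd1*, and 0.87, between *Cryab* and *Hspa5*, and the lowest was -0.20, between *Cryab* and *Hspa8*. The ratios of *Cryab* were nearly all below 0, and lowest on arrays 1 and 2, where those of *Hspb1* were lowest too. The order differed elsewhere. On array 8 *Hspb1* had 2.70 and *Cryab* -0.25, and on array 4 *Hspb1* had 1.63 and *Cryab* -0.042. Among 9462 named genes well above background in both channels on all arrays, the pattern most like that of *Hspb1* was found for *Timeless* (a replication fork protein, r = 0.99, log2 fold change 0.50). It was followed by *Sec13* (a coat protein of transport vesicles, log2 fold change 0.12), *Cd38* (an enzyme that uses NAD, 0.66), *Slc16a1* (a lactate transporter, 0.38) and *Sdf2l1* (a protein of the endoplasmic reticulum chaperone complex, 0.27), with r between 0.98 and 0.99. Only the likeness of pattern was ranked, and the sizes of these differences were all under that of *Hspb1*.

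The wider chaperone network was read from 8 lists with 85 further genes, of which 78 were measured. At an unadjusted p under 0.01 in limma, 0 of the 78 were called, against 4.31% of named genes, and 0 had an adjusted p under 0.05. At an unadjusted p under 0.05 there were 9 (11.5%, 7 higher and 2 lower), against 13.1% of named genes. The median log2 fold change was 0.022, with 46 genes above 0 and 32 below, from -0.14 (*Hspb3*) to 0.28 (*P4hb*).

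By role, the largest differences were small in each list. Among 6 other small heat shock proteins the median was -0.023, and *Cryaa* (αA-crystallin of the lens) had a log2 fold change of 0.26 (SE 0.10, unadjusted p = 0.0407 in limma). Among 8 Hsp70 and Hsp110 proteins the median was -0.0012, with *Hspa14* at 0.12. Among 3 Hsp90 proteins it was 0.064, with *Hsp90b1* (Grp94, of the endoplasmic reticulum) at 0.11. Among 16 J-domain proteins it was -0.013, with *Dnajc2* at 0.14 (unadjusted p = 0.0220 in limma). Among 17 cochaperones of Hsp70 and Hsp90 it was -0.015, with *Fkbp4*, an immunophilin of steroid receptor complexes, at 0.14 (unadjusted p = 0.0518 in limma). Among 9 chaperonin genes it was 0.069, with *Cct4*, a subunit of the cytosolic chaperonin, at 0.12. Among 3 heat shock transcription factors it was -5.8e-04, and *Hsf1*, the main stress-activated factor, had a log2 fold change of 0.059 (SE 0.045, 95% interval -0.047 to 0.17, unadjusted p = 0.232 in limma). None of these passed the threshold of 0.01.

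The list with the highest median (0.098) was that of folding in the endoplasmic reticulum and the unfolded protein response, with 12 of 16 genes above 0 and 0 called. *P4hb*, a protein disulfide isomerase, had a log2 fold change of 0.28 (SE 0.091, 95% interval 0.067 to 0.49, unadjusted p = 0.0173 and adjusted p = 0.342 in limma), with ratios above 0 on 8 of 8 arrays, between 0.030 and 0.71. Unadjusted p values under 0.05 were found for 4 of the 16, all higher, against 13.1% of named genes in either direction, and the other 3 were *Sdf2l1* (0.27), *Calr* (0.23) and *Pdia3* (0.18), of which *Calr* and *Pdia3* were picked out after their values were seen. The median ratio of the list was between -0.051 and 0.069 on the arrays of row 1 and between 0.052 and 0.28 on those of row 2, on which the reactive astrocyte markers were also higher. *Hspa5*, the member that belongs to this compartment, had a mean ratio of 0.021 in row 1 and 0.068 in row 2.

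**Figure D5:**
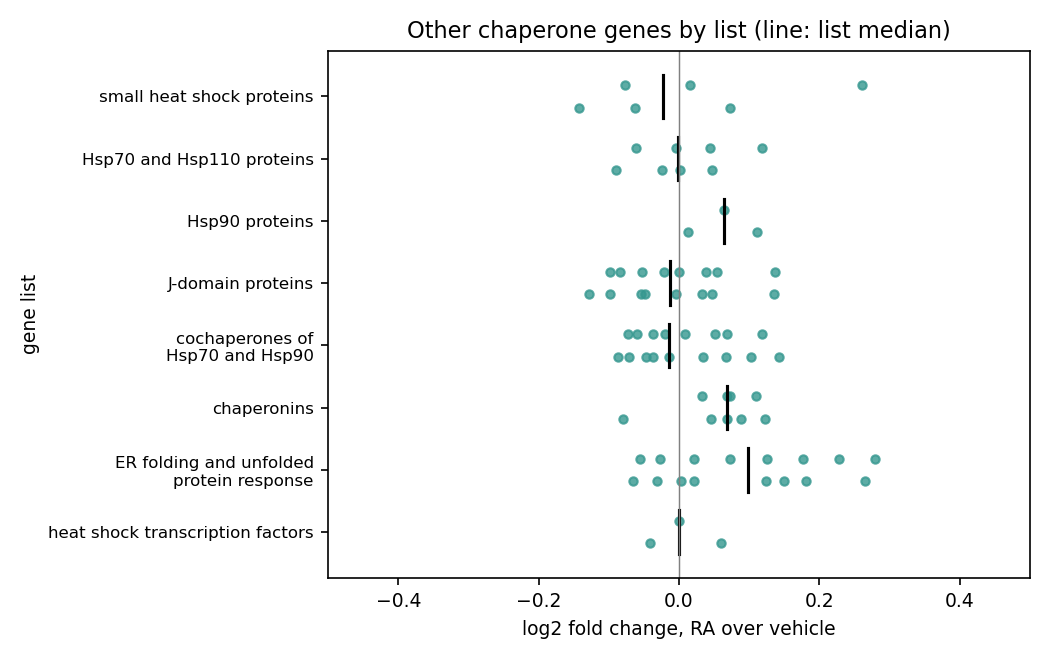
The x axis is the log2 fold change of RA over vehicle and the y axis lists 8 groups of chaperone genes outside the set; each point is 1 of 78 genes and each black line the median of its list. All points lie between -0.14 and 0.28, and the folding genes of the endoplasmic reticulum (ER) have the highest median, 0.098.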

How the data were processed

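RNA from the hypothalamus of 4 rats given RA and 4 given vehicle was hybridised to 8 two-colour arrays (Agilent), with the dyes swapped. The authors deposited Cy3 and Cy5 intensity values per spot from Feature Extraction 10.7.3.1, with Agilent's log10 ratio of Cy5 over Cy3, and a table of normalised log2 ratios of the whole series. Their methods name limma, loess, averaging of identical probes, dye-swaps as a block and an unadjusted p under 0.01.

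Here R 4.3.3 and limma 3.58.1 were used. Median spot signals (the arrays give no means) were corrected by normexp with an offset of 50, outlier and control spots were dropped, loess was applied within arrays, and spots of each of 30367 probes were averaged. The labels do not say which arrays share RNA. All 24 couplings of arrays of opposite dye were therefore fitted in limma on 4 couple means, and each probe kept its largest p. The Benjamini-Hochberg adjustment covered all probes. The p values measure the spread between these arrays, which may be partly technical, and the number of arrays limits the precision. Levels are per channel after loess and Aquantile.

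Transcript accessions were matched to RefSeq genes of GRCr8 for 18006 probes, and 12361 had no match. The brightest probe stood for a gene. The members and lists were chosen with earlier results of these data known. The text names all members, for each chaperone list up to 3 called genes or otherwise the gene with the largest difference, the 5 genes most like *Hspb1*, and marker genes. Alternatives covered background, normalisation, probe choice, dye order, slide row, the model of shared RNA and left-out arrays.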

Additional observations from a re-analysis of the deposited data

Results flagged for a closer look

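In 2 of 52 groups of 4 arrays with the same dye order, 1 array lay apart from the other 3 by Dixon's criterion, and chance gives about 1 in 20. The log2 ratio of *Hsph1* was -0.27 on array 5, where the other 3 arrays with RA in Cy3 had 0.078 to 0.14. The median log2 ratio of the choroid plexus markers was -1.57 on array 7, where the other 3 with RA in Cy3 had 0.074 to 0.40. It was also low on array 6, with RA in Cy5, at -1.38.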

How the results depend on the processing

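Counts were recomputed under 33 alternatives, of which 16 left out 1 array of each dye order. The log2 fold change of *Hspb1* was 1.57 (slide row 1 only) to 2.84 (slide row 2 only) over the 33, and 1.88 to 2.52 with arrays left out. *Hspb1* was picked for its rise and was above 0 on all 8 arrays, so its kept sign is no test. Alternatives that changed only the model of shared RNA left the value at 2.21. Among the 7 other members, the number called higher was 0 in all 33. The number called lower was 0 in all but 4 alternatives. It was 1 in these, namely *Cryab* with the median p over the couplings, with slide row as a block (unadjusted p = 0.00442) and in slide row 1 only (-0.32, unadjusted p = 0.00584), and *Hspa8* with RA in Cy3 only (-0.22, unadjusted p = 0.00871), all from limma. *Cryab* had -0.26 to -0.099 with arrays left out, nearest to 0 without arrays 1 and 2. In slide row 2 only it had -0.084 (unadjusted p = 0.349 in limma). Among the 78 other chaperone genes, the number called higher was 1 without background correction, 1 with the deposited values, 1 with RA in Cy3 only, 3 with a random block, 4 with 8 independent arrays, 4 with the median p, 5 with RA in Cy5 only, 5 in slide row 2 only and 6 with slide row as a block. With arrays left out it was 0 to 3, and it was above 0 only without array 1 (3 without arrays 1 and 2). The number called lower was 5 with RA in Cy3 only, 1 each with RA in Cy5 only, with independent arrays and with slide row as a block, and 0 otherwise. Of all named genes, 12.4% were called with slide row as a block, 9.97% with independent arrays, 8.62% with the median p, 8.02% and 8.18% with RA in Cy5 or Cy3 only, 7.08% with a random block, and 2.94% and 6.51% in slide row 1 or 2 only. Members with ratios near 0 changed sign: *Hsph1* had -0.013 with Agilent's log ratio, -0.039 in slide row 2 only and -0.021 to 0.097 with arrays left out. *Hsp90aa1* had 0.021 with the mean of all probes, 0.011 with RA in Cy5 only and -0.088 to 0.0043 with arrays left out. With RA in Cy5 only *Hspa8* had 0.071 and *Hspa5* -0.016, and *Hspa5* had -0.0054 to 0.11 with arrays left out. The cause of these changes was not tested. Each log2 ratio already sets RA against vehicle within an array, and arrays of opposite dye were coupled in all 24 ways. No replicate number is shared by arrays of the 2 dye orders, so replicate number could not serve as a block. Signal over background did not limit the members.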
